A study of Mus musculus with 6 samples.

Results

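The genes described here are the 4 Id genes and 6 genes of the bone morphogenetic protein (BMP) and SMAD pathway, 10 of the 19938 named genes on the arrays. They comprise Id1, Id2, Id3, Id4, the ligand gene Bmp4, the receptor genes Bmpr1a and Bmpr2, and the SMAD genes Smad1, Smad5 and Smad6. The genes were chosen by name, with the result for Id3 already known from the same arrays. Each is represented by the probe set with the highest mean log2 signal over all arrays. In each case only 1 probe set lists the gene alone and none lists it with other genes, so no choice between probe sets was needed. Since the group was put together with results in view, its counts describe these genes and are not independent evidence for a change of the pathway.

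Total RNA of E14 mouse embryonic stem cells, an established line, was hybridised to Affymetrix whole-transcript arrays as 3 Tdg knockdown samples and 3 control samples. The Tdg product, thymine DNA glycosylase, acts in base excision repair and also removes oxidised forms of 5-methylcytosine. Both groups are described as cells in serum and leukaemia inhibitory factor (LIF) transduced with lentivirus at a multiplicity of 10 and placed under puromycin 48 hours later. The labels do not give the knockdown sequence, the number of constructs, what the control vector carried, or the time from selection to RNA extraction, and they do not say that the samples of a group came from separate cultures. The p-values therefore reflect only sample-to-sample spread within each group, part or all of which may be technical. The RNA protocol names Kdm2b in place of Tdg. Tdg signal, the mean of 4 probe sets shared with the pseudogene Tdg-ps2, was 8.11 ± 0.16 in Tdg knockdown cells and 11.14 ± 0.05 in controls (SD, n = 3 each), so that 12.2% of the signal remained.

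BMP ligands bind paired type I and type II receptor kinases. The type I receptor phosphorylates SMAD1, SMAD5 or SMAD9, which enter the nucleus with SMAD4, while SMAD6 and SMAD7 oppose the signal. Id genes are among the direct targets of this cascade, and their products are helix-loop-helix proteins without a DNA-binding basic region that hold E proteins in inactive pairs. In mouse embryonic stem cells grown with LIF, BMP4 from serum or from the medium is known to support self-renewal, and induction of Id genes is known as part of that effect.

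The upstream sequences of 3 Id genes are shown, of which Id3 was higher, Id2 slightly lower and Id4 nearly level in knockdown cells. They are the 250 bases before the annotated start in RefSeq, build GRCm38.p6, each read 5′ to 3′ on the gene's own strand. They lie at chr4:136143572-136143821 on the plus strand for Id3, chr12:25096093-25096342 on the minus strand for Id2 and chr13:48260866-48261115 on the plus strand for Id4. Capitals mark matches on either strand to 3 motifs, which are GGCGCC, the GC-rich palindrome reported for SMAD1 and SMAD5, GTCTG, a SMAD box with a flanking base, and GCGNGGGCG, the motif of the zinc finger factor Egr1.
Id3: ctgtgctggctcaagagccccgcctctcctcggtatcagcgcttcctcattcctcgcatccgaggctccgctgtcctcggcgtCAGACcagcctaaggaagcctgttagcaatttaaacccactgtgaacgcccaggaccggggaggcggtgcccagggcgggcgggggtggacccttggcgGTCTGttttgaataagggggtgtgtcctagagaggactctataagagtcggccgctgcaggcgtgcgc
Id2: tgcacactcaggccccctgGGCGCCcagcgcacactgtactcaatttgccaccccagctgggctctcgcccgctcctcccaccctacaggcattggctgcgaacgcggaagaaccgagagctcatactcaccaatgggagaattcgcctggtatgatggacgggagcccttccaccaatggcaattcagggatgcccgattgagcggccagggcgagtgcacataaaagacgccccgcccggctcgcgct
Id4: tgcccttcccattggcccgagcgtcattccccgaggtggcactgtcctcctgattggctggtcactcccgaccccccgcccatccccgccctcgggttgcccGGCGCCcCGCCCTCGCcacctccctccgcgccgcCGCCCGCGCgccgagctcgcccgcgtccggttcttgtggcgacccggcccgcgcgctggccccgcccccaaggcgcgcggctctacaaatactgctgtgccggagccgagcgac

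The Id3 window held GTCTG on both strands, with matches starting 167 and 68 bases before the gene's start, and neither of the other motifs. The Id2 window held GGCGCC, starting 231 bases before the start, and no match to the others. In the Id4 window there were 1 match to GGCGCC and 2 to the Egr1 motif, none of which overlap. Of 32851 such windows over the annotated genes, 42.2% held GTCTG, 9.59% held GGCGCC and 4.70% held the Egr1 motif. GGCGCC also occurred in windows of Bmpr2, Bmpr1a and Smad5, and GTCTG in a window of Smad5. These matches are a description of the letters in the window, and their relation to the differences was not tested. Windows were found for 9 of the 10 genes, all but Id1.

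Knockdown replicate 3 stood apart from the other 5 arrays before any gene was considered. On the first principal component of the named genes, which held 58.6% of the variance, it lay at 31.0, against -17.5 to 5.17 for the others. Values without it are given below where they matter. All 14 embryonic stem cell markers examined, among them Pou5f1, Sox2 and Nanog, lay above the array median on all 6 arrays. Their mean log2 signal was 12.07 to 12.15 in the knockdown arrays and 12.08 to 12.12 in the control arrays, and none was called. Of the markers of other cell types, 4 of 12 fibroblast genes, 5 of 12 primitive endoderm genes, 4 of 9 mesoderm genes, 7 of 8 neuroectoderm genes and 6 of 11 trophoblast genes lay above the median on every array. That median is over all 35557 rows, of which 12147 list no gene. The share of all named genes above it was not counted, so these counts do not show that a cell type was present. Pax6, a neuroectoderm marker, was the only gene of these lists called without a block, at 0.93 higher in knockdown cells (adjusted p 0.0145, limma). In the same list 4 genes were higher and 2 lower without overlap of the groups, where 7.98% and 11.0% of all genes were. Nes, the gene of the neural filament nestin, differed by -0.60 (adjusted p 0.0845, or 0.0246 with the replicate number as a block, limma). With that block 4 neuroectoderm genes were called higher and 1, Nes, lower, against 1.07% and 2.01% of all genes. The block also called lower 1 primitive endoderm gene (Hnf4a, -0.46) and 2 trophoblast genes (Krt8, -0.38, and Krt18, -0.32). Without knockdown replicate 3, Nes (adjusted p 0.0405) and Hnf4a (0.0445) were among the genes called by limma. The mean log2 signal of the neuroectoderm list was 8.67 to 8.83 in the knockdown arrays and 8.56 to 8.64 in the control arrays. These groups did not overlap, but that separation depends on Pax6, the largest increase of the list. Of its 8 genes 6 differed upward and 2 downward. The part of the list in the Id gene values was not tested. Fewer cells of a type and less RNA per cell cannot be told apart in such bulk samples.

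Among the Id genes, Id3 was higher, Id1 was slightly higher, Id2 slightly lower and Id4 nearly level in Tdg knockdown cells. Only Id3 passed the test over all genes without a replicate block. With the replicate number as a block Id1 passed as well. All values are log2 signals as deposited, and differences are knockdown minus control on that scale.

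Id3 read 9.24, 9.58 and 9.24 in knockdown cells, against 8.44, 8.65 and 8.57 in control cells. The lowest knockdown array was above the highest control array, and knockdown replicate 2 was the highest of the 6. The difference was 0.80 (SE 0.11, 95% interval 0.54 to 1.06, adjusted p 0.0336, limma), a 1.74-fold higher signal, and an exact two-sided permutation test gave 0.1, the smallest p that 3 arrays against 3 allow. Id3 had the 6th largest increase of the 19938 genes. It was higher in each numbered pair, by 0.80, 0.93 and 0.67. The call was lost with all rows tested (adjusted p 0.117, limma) and without the arrays numbered 3 in both groups (0.0666). It was also lost without knockdown replicate 1 or 2, or without control replicate 1, 2 or 3 (adjusted p 0.0776 to 0.192), while the difference stayed between 0.69 and 0.86. Without knockdown replicate 3 it was 0.86 (adjusted p 0.0255).

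Id1 read 9.73, 9.90 and 9.90 in knockdown cells, against 9.45, 9.53 and 9.48 in control cells. Here too the groups did not overlap. The difference was 0.36 (SE 0.07, 95% interval 0.19 to 0.53), with an adjusted p of 0.0857 in limma without a block and 0.0376 with the replicate block. It was positive in each numbered pair, at 0.28, 0.37 and 0.42, and 0.33 without knockdown replicate 3.

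Id2 showed the opposite sign, with 11.72, 11.69 and 11.63 in knockdown cells against 11.94, 11.98 and 11.91 in control cells. All knockdown values lay below all control values. The difference of -0.26 (SE 0.06, 95% interval -0.41 to -0.12) did not pass in limma, with an adjusted p of 0.119 and of 0.0627 with the replicate block. The pair values were -0.22, -0.29 and -0.28.

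Id4, a member expressed in neural progenitors, read 7.68, 7.72 and 7.61 in knockdown cells against 7.66, 7.69 and 7.62 in control cells. The groups overlapped throughout. The difference was 0.01 with a 95% interval of -0.13 to 0.16, which reflects only the spread between these arrays.

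**Figure D1:**
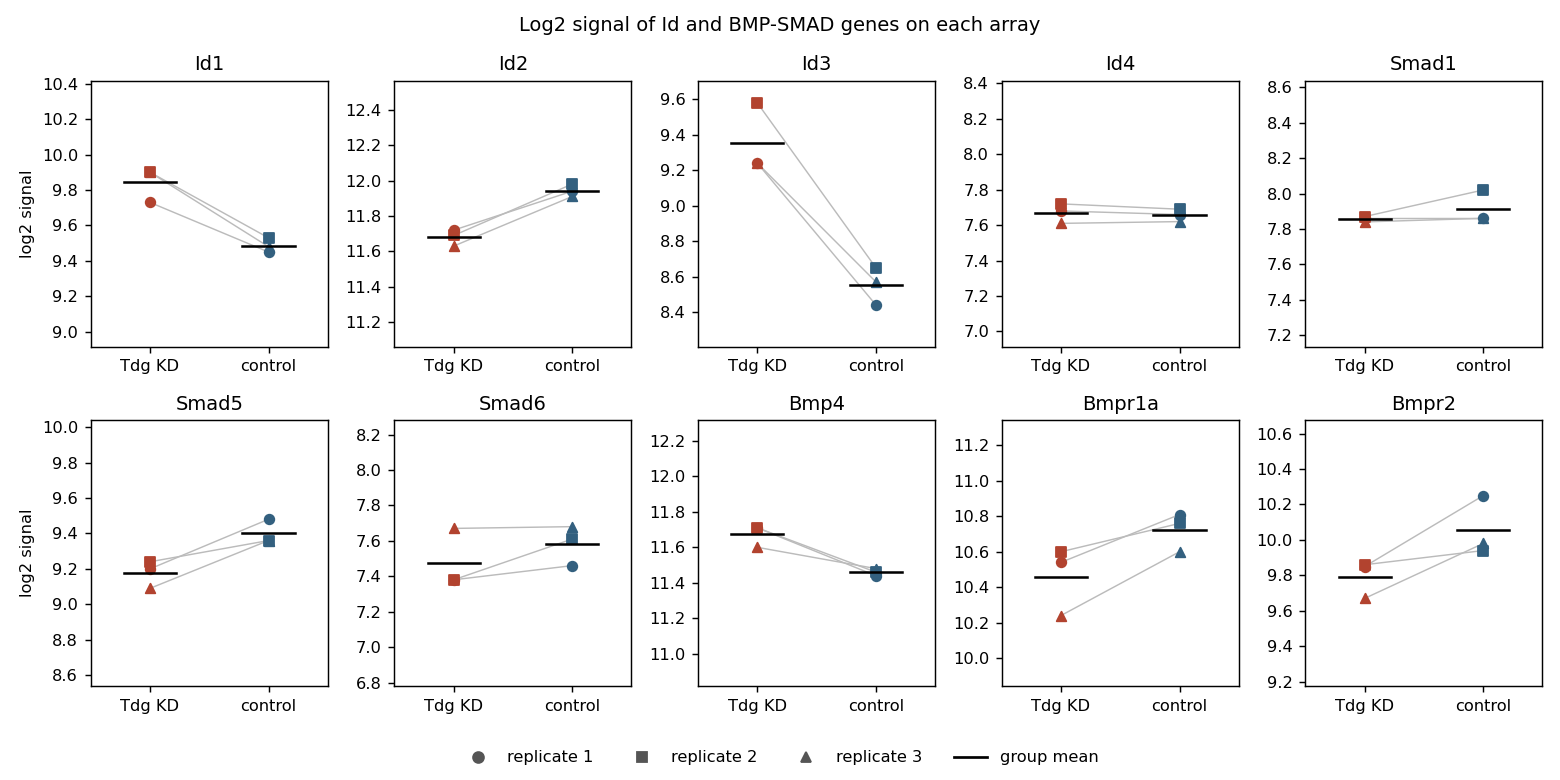
Log2 signal (vertical axis, 1.5 log2 units in every panel) of the 10 genes on the 3 Tdg knockdown arrays (red, left) and the 3 control arrays (blue, right), with the replicate number as the symbol, group means as black bars and grey lines joining equal numbers. Id3 and Id1 lie higher and Id2 lower in all knockdown arrays, while Id4 is level.

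The contrast between Id genes was also taken within each array, after the values above had been seen. A difference between 2 probe sets has no meaning as a level, but its change between groups does not depend on a scaling that shifts a whole array. Id1 minus Id2 was -1.84 ± 0.14 in knockdown arrays and -2.46 ± 0.03 in control arrays (SD, n = 3 each), a change of 0.62. Id3 minus Id2 changed by 1.06 and Id3 minus Id1 by 0.44. In all 3 contrasts the knockdown arrays lay above the control arrays without overlap. For both contrasts with Id2 this separation follows from the values of the single genes, and all 3 are a description with no test.

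**Figure D2:**
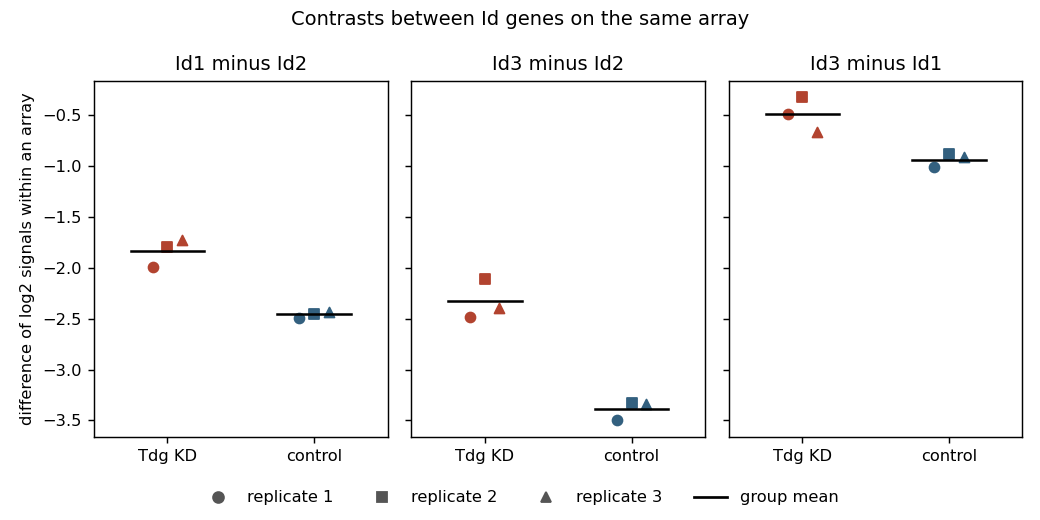
Difference of log2 signals between 2 Id genes on the same array (vertical axis), for Tdg knockdown arrays (red, left) and control arrays (blue, right), with symbols for replicate numbers and black bars for group means. The knockdown arrays lie higher in each panel, by 0.62, 1.06 and 0.44 from left to right.

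None of the 6 BMP and SMAD genes Bmp4, Bmpr1a, Bmpr2, Smad1, Smad5 and Smad6 passed the test in either direction without a block. Bmp4, which encodes a ligand, tended upward, and the receptor and SMAD genes all had differences below 0.

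Bmp4 read 11.71, 11.71 and 11.60 in knockdown cells against 11.44, 11.46 and 11.48 in control cells. The 2 groups were separate, with knockdown replicate 3 nearest to the controls. The difference was 0.21 (SE 0.06, 95% interval 0.07 to 0.36) with an adjusted p of 0.204 in limma, and 0.25 without knockdown replicate 3.

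The type I receptor gene Bmpr1a read 10.54, 10.60 and 10.24 in knockdown cells against 10.81, 10.76 and 10.60 in control cells. The arrays numbered 3 were the lowest of each group, and the highest knockdown value equalled the lowest control value. The difference of -0.26 (SE 0.11, adjusted p 0.393, limma) was -0.15 without knockdown replicate 3, a change of more than 1.5 times. Bmpr2, the type II receptor gene, read 9.85, 9.86 and 9.67 in knockdown cells against 10.25, 9.94 and 9.98 in control cells. Its groups were separate by a small margin, and the high value of control replicate 1 carried part of the difference. That difference was -0.26 (SE 0.10, adjusted p 0.355, limma), and -0.17 without control replicate 1.

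Smad5, a receptor-activated SMAD gene, read 9.20, 9.24 and 9.09 in knockdown cells against 9.48, 9.36 and 9.36 in control cells. All knockdown values were lower. The difference was -0.22 (SE 0.07, adjusted p 0.246, limma), with pair values of -0.28, -0.12 and -0.27. Smad1, another receptor-activated SMAD gene, read 7.86, 7.87 and 7.84 in knockdown cells against 7.86, 8.02 and 7.86 in control cells. Its groups overlapped, and only control replicate 2 stood higher. The difference was -0.06 with a 95% interval of -0.22 to 0.10. Smad6 encodes an inhibitory SMAD and is itself a reported BMP target. It read 7.38, 7.38 and 7.67 in knockdown cells against 7.46, 7.61 and 7.68 in control cells, with overlapping groups and a high value of knockdown replicate 3. The difference was -0.11 (95% interval -0.35 to 0.14), and -0.20 without that array (adjusted p 0.298, limma).

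**Figure D3:**
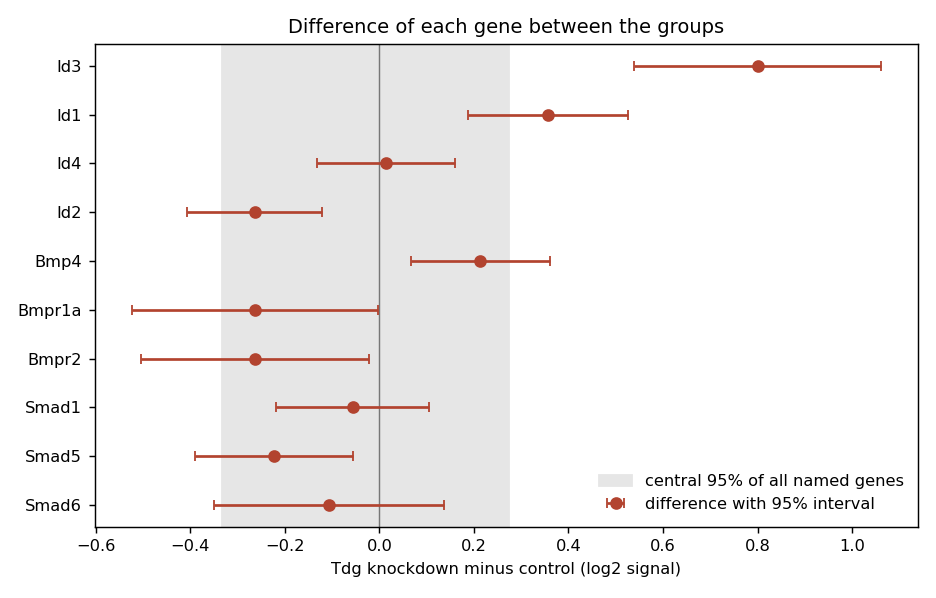
Difference in log2 signal between Tdg knockdown and control arrays (horizontal axis) for each gene, with 95% intervals from limma, over a grey band that holds the central 95% of the 19938 named genes, from -0.33 to 0.27. Id3 and Id1 lie above the band, and the other 8 genes lie within it.

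In counts, 1 of the 10 genes was called higher, where 0.241% of all genes were, and 0 were called lower, where 0.552% were (limma, adjusted p under 0.05). With the replicate block 2 were called higher and 0 lower, against 1.07% and 2.01% of all genes. At an unadjusted p under 0.05, 3 were higher and 4 lower, against 5.03% and 7.48% of all genes. The groups did not overlap for 3 genes that were higher, Id1, Id3 and Bmp4, and for 3 that were lower, Id2, Smad5 and Bmpr2, where 7.98% and 11.0% of all genes behaved so. The median difference over the 10 was -0.08, with 4 above 0 and 6 below, beside 0.02 over all genes. As the genes were chosen with these arrays' results known, nothing is read from these counts about the pathway.

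The wider pathway was described with 7 lists of genes by role, which hold 101 measured genes. The last list holds E proteins and other basic helix-loop-helix genes, which were counted with the rest but are not genes of the BMP and SMAD cascade. Of the 101 genes, 0 were called higher and 1 was called lower, the ligand gene Bmp7 (limma). Over all genes 0.241% and 0.552% were called. At an unadjusted p under 0.05, 6 were higher and 6 lower, against 5.03% and 7.48% of all genes. The groups did not overlap for 9 higher and 10 lower genes, against 7.98% and 11.0%. These shares also stand beside the counts and separate groups in the single lists below. With the replicate block Bmp1 was called lower as well, where 1.07% of all genes were called higher and 2.01% lower. Without knockdown replicate 3 the counts called were again 0 and 1. The median difference of the 101 genes was 0.04, beside 0.02 over all genes.

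Bmp7, a BMP ligand expressed in many embryonic tissues, fell in knockdown cells. It read 8.39, 8.60 and 8.54 there, against 9.03, 8.99 and 9.07 in control cells. The groups lay well apart, and the difference was -0.52 (SE 0.07, 95% interval -0.70 to -0.34, adjusted p 0.0360, limma). The call was lost with quantile normalization (-0.48, adjusted p 0.0563, limma), with all rows tested (0.117) and without the arrays numbered 3 in both groups (0.0755), and also without any array other than knockdown replicate 3 (-0.46 to -0.565, adjusted p 0.0867 to 0.219). Of the 14 other ligand genes measured, Bmp7 included, 12 differed upward and 2 downward, with a median of 0.10 that was -0.0025 without knockdown replicate 3 and 0.0208 without control replicate 1. Only 5 of the 14 lay above the array median on all 6 arrays, so most of these probe sets were dim. Bmp15, an oocyte ligand with a mean log2 signal of 5.87, had the largest positive difference, 0.27 (adjusted p 0.611, limma). It was 0.08 without knockdown replicate 3.

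None of 11 other receptor and co-receptor genes passed, and their differences ran from -0.12 for Rgmb to 0.15 for Hjv, both BMP co-receptor genes (adjusted p 0.745 and 0.540, limma). The Rgmb difference was -0.03 without knockdown replicate 1 and -0.22 without knockdown replicate 3, and that of Hjv was 0.09 without knockdown replicate 2. The list median was -0.02, and between -0.06 without knockdown replicate 2 and 0.0033 without control replicate 1. Here 0 passed at an unadjusted p under 0.05 in either direction. The type I receptor gene Bmpr1b differed by -0.11 (adjusted p 0.607).

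Of 10 further SMAD and cofactor genes none passed, with a median of 0.06 that was 0.0325 without knockdown replicate 3 and 0.04 without knockdown replicate 2. Tob2, an antiproliferative family gene whose relative Tob1 represses SMAD signalling, showed 0.31 (adjusted p 0.0963, limma). Zfp423, a zinc finger partner of BMP-activated SMADs, showed 0.26 (adjusted p 0.249). The lowest value was -0.05 for the corepressor gene Skil, a sign that turned without knockdown replicate 3 (0.01). At an unadjusted p under 0.05, 2 were higher and 0 lower.

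Among 11 intracellular inhibitors and turnover factors none passed, and the median was -0.02, with values between -0.05 when knockdown replicate 2 was left out and 0.005 when knockdown replicate 1 was. The SMAD phosphatase gene Ctdsp1 read 8.93, 8.94 and 8.98 in knockdown cells against 8.70, 8.70 and 8.74 in control cells, a difference of 0.24 (adjusted p 0.132, limma). Pmepa1, an inhibitor of TGF-beta signalling, read 10.51, 10.46 and 10.61 against 10.79, 10.75 and 10.87 in control cells, a difference of -0.28 (adjusted p 0.144). For both genes the groups did not overlap, where 7.98% of all genes were higher and 11.0% lower without overlap. At an unadjusted p under 0.05, 1 gene of this list was higher and 1 lower.

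Of 18 secreted antagonists and modulators none passed without a block, and the median was 0.03. That median turned sign without knockdown replicate 3 (-0.015) or control replicate 1 (-0.0092), and was 0.0958 without knockdown replicate 2 and 0.0892 without control replicate 3. Bmp1 encodes a metalloprotease that cleaves the antagonist chordin and is not a BMP ligand. It read 8.74, 8.82 and 8.89 in knockdown cells against 9.01, 9.12 and 9.18 in control cells, a difference of -0.29 (adjusted p 0.155, or 0.0493 with the replicate block, limma). The antagonist genes Chrdl1 and Grem1 showed 0.17 (adjusted p 0.352) and 0.26 (adjusted p 0.628), the second being 0.06 without knockdown replicate 3. At an unadjusted p under 0.05, 1 was higher and 1 lower.

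No other reported BMP-SMAD target on the list was called. Of the 22 measured, the median was 0.05, or 0.0192 without knockdown replicate 3, 0.0067 without control replicate 1 and 0.0733 without control replicate 3, and 13 differed upward and 9 downward. The homeobox gene Msx2 showed 0.23 (adjusted p 0.290, limma) and the T-box gene Tbx3 -0.20 (adjusted p 0.232), both with separate groups. Msx1 showed 0.29 (adjusted p 0.691), which was 0.03 without knockdown replicate 3. The target genes Smad7 and Bambi, singled out after their values were seen, differed by 0.00 (SE 0.07) and 0.15 (SE 0.09), and neither was called. At an unadjusted p under 0.05, 1 of the 22 was higher and 1 lower.

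Of 20 E proteins and other basic helix-loop-helix genes, the class of factor that Id proteins bind or that acts beside it, none passed and the median was 0.06, which was 0.0058 without knockdown replicate 3 and 0.0017 without control replicate 1. The neuronal factor gene Neurod1 read 10.13, 10.20 and 9.69 in knockdown cells against 10.58, 10.46 and 10.41 in control cells. Its difference was -0.48 (adjusted p 0.195, limma), and -0.32 without knockdown replicate 3. Hand1, a cardiac and trophoblast factor gene, showed 0.32 (adjusted p 0.311). The 3 E protein genes, also singled out after their values were seen, showed 0.06 for Tcf3, -0.06 for Tcf4 and -0.01 for Tcf12.

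**Figure D4:**
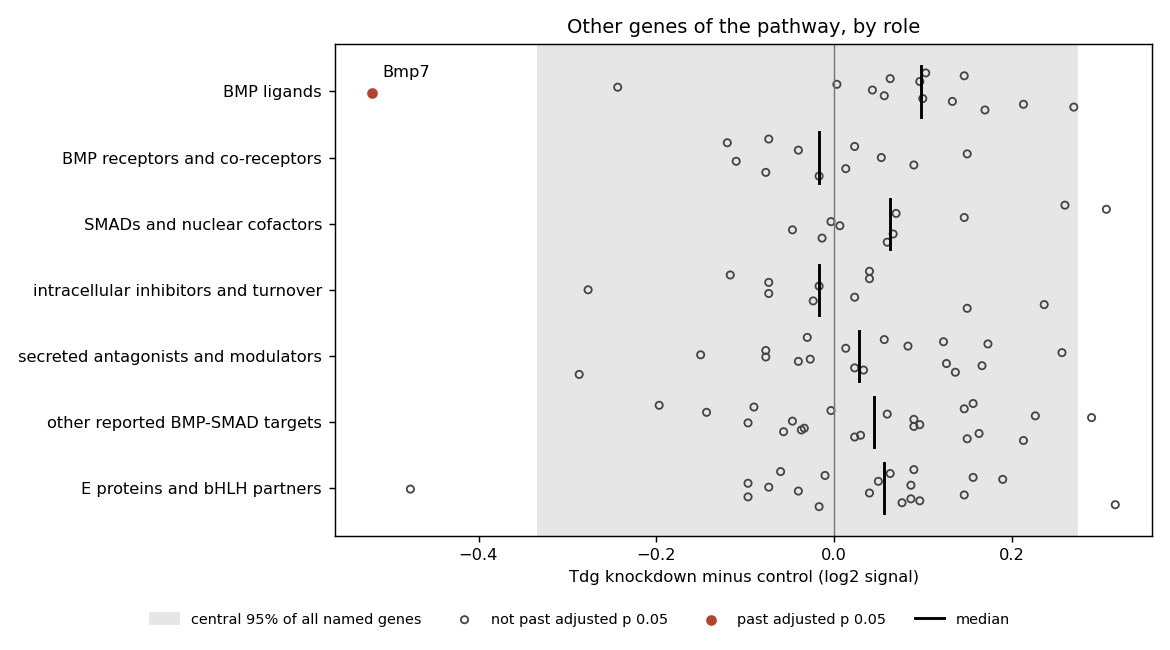
Difference in log2 signal between Tdg knockdown and control arrays (horizontal axis) for 7 lists of genes by role, 1 circle a gene. The lists hold other genes of the pathway and, in the last, E proteins and other basic helix-loop-helix genes. Black bars are list medians, and the grey band holds the central 95% of all named genes. Bmp7, at -0.52, is the only filled circle, which marks an adjusted p under 0.05, and the list medians lie between -0.02 and 0.10.

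The 5 genes whose signal followed that of Id3 most closely were taken by Pearson correlation over the 6 arrays, among 3535 genes with an SD of at least 0.2. They were Tfeb, a lysosomal transcription factor gene (r = 0.995), Apobec2, a gene of the cytidine deaminase family (r = 0.991), the transcription factor gene Pax6 (r = 0.991), the guidance cue gene Ntn1 (r = 0.988) and the zona pellucida gene Zp3 (r = 0.988). Most of each correlation is the step between the groups that these genes share with Id3, and with 6 arrays in 2 groups it is a description only. Ntn1 differed by 0.81 and Zp3 by 0.79, and both were called (adjusted p 0.0180 and 0.0262, limma), as was Pax6. These 3 calls were lost with all rows tested (adjusted p 0.0769 for Pax6, 0.0927 for Ntn1 and 0.0981 for Zp3, limma) and without any single array other than knockdown replicate 3 (0.0589 to 0.106, 0.0730 to 0.135 and 0.0730 to 0.172 in the same order). Tfeb and Apobec2 differed by less, 0.35 and 0.44, and were not called without a block (adjusted p 0.0927 and 0.0759, limma). Both were called with the replicate block (0.0355 and 0.0259), with a trended and robust prior and with array weights, and Apobec2 also without the dimmest 1 in 3 probe sets. In all 5 genes the groups did not overlap, which follows largely from their choice by correlation with Id3, whose groups are separate.

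**Figure D5:**
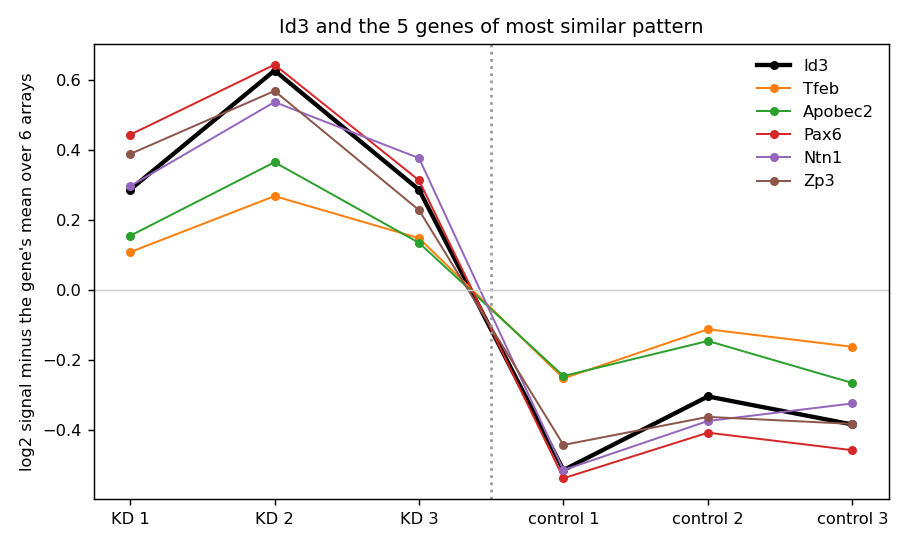
Log2 signal of Id3 (black) and of the 5 genes closest to it in correlation, each minus its own mean over the 6 arrays (vertical axis), for the Tdg knockdown arrays (left of the dotted line) and the control arrays (right), where lines only join the points of a gene. Every gene is above its mean in all knockdown arrays and below it in all control arrays, with the smallest step in Tfeb, 0.35. The choice by correlation with Id3 largely fixes this pattern.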

How the data were processed

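The submitters' processing notes name Affymetrix Expression Console as the authors' tool for the deposited log2 signals of each probe set. How signals were summarised and normalized is not given in the sources used here. Values from 2.26 to 14.03, with array medians of 7.41 to 7.48, showed the scale to be log2. Precision is limited by 3 arrays a group.

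Of 35557 rows, 21789 list 1 gene in the platform annotation. The brightest row on average was kept for each of 19938 named genes, with symbols updated through RefSeq (GRCm38.p6). Knockdown was compared with control across all genes with limma 3.58.1 in R 4.3.3 (lmFit, eBayes, two-sided, no block), with Benjamini-Hochberg adjustment over all named genes and a threshold of 0.05. Exact permutation tests used scipy 1.17.1. The procedure was tested on simulated data.

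Members, gene lists, motifs and tests were chosen with earlier results of these data known. Genes named are all members, Tdg, and from each pathway list the called genes (or the 2 of smallest p) and the largest increase and decrease. The 5 genes most correlated with the member of smallest p were added. Pax6, Nes, Hnf4a and Krt8 are the largest increase or decrease of their marker lists. Krt18 is named for its call with the block, after its values were seen, while other neuroectoderm genes called with the block are not named. Any others given with values are said to be chosen after these were seen. Samples of equal replicate number deviated together from their group means (correlations 0.61, 0.23 and 0.70, criterion over 0.1 in each). Equal numbers were therefore taken as pairs in the replicate block, while the fit reported has no block. Knockdown replicate 2 correlated more with control replicate 1 (0.44) than with control replicate 2 (0.23). No label says what equal numbers share. Alternatives are given in the closing section.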

Additional observations from a re-analysis of the deposited data

How the results depend on the processing

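Besides the fit reported, 15 other fits and a minimum fold were tried, 1 of them, leaving out the arrays numbered 3 in both groups, chosen after seeing the data. The numbers of genes called higher and lower over all genes were 48 and 110, and became 214 and 400 with the replicate block, 107 and 244 without the dimmest 1 in 3 probe sets, 140 and 306 with a trended and robust prior, 652 and 981 with array weights (gene by gene, since the default estimate did not converge), 2 and 10 with all rows tested, and 20 and 55 with a fold change of at least 1.5. Median centring gave 29 higher, and leaving out the arrays numbered 3 gave 66 lower. Leaving out 1 array gave 0 to 131 higher and 0 to 159 lower.

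Of the 10 members, the 1 called higher became 2 with the replicate block or without those dimmest probe sets, 3 with the trended prior or array weights, 0 with all rows tested or without the arrays numbered 3, and 0 to 1 without 1 array. The 0 called lower became 1 (Id2) with the trended prior or array weights. Id3 kept its direction in all 15 fits, at 0.69 to 0.86, and was called in 8. Id1 (0.28 to 0.41) was called in 4, Bmp4 (0.20 to 0.26) and Id2 (-0.28 to -0.24) in 2 each. The replicate block changed no other member's call. Among the 10 members and the 23 other genes refitted, which do not include Tdg, Nes, Hnf4a, Krt8, Krt18, Smad7, Bambi, Tcf3, Tcf4 and Tcf12, signs turned only for Id4, at -0.0117 without knockdown replicate 2 and at -0.005 without control replicate 3 (range without 1 array -0.0117 to 0.0433), and for Skil, at 0.0434 with array weights, 0.0117 without knockdown replicate 3 and 0.0167 without control replicate 1 (range -0.0933 to 0.0167). The cause of these changes was not tested. Some of the fits also differ from the one reported in the number of tests or arrays. List medians were set against the SD of each list's median over the 3 knockdown arrays, which include the outlying replicate 3. They moved by more than that only for the receptors, to -0.06 without knockdown replicate 2. By this measure the ligand median of 0.10 counted as unmoved at -0.0025 without knockdown replicate 3. Detection above background was not analysed, which limits what the dimmer probe sets, such as Smad6 and Id4, can show.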
